A study of Mus musculus with 6 samples.

Results

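The genes described here are the ligands and receptors of the platelet-derived growth factor (PDGF) family together with the receptor-like gene Pdgfrl. They were chosen by gene symbol, and all 7 members (Pdgfra, Pdgfrb, Pdgfrl, Pdgfa, Pdgfb, Pdgfc and Pdgfd) were found among the 31053 features listed for each library. The data were single-cell RNA sequencing of stromal vascular cells from inguinal white adipose tissue (iWAT) of C57BL/6 mice, sorted as live cells and depleted of CD45+ immune cells. There were 6 libraries, 1 for each combination of age and housing. Young mice were 9 weeks old and aged mice 57 weeks old, and all mice were first held at 30 °C for 3 weeks. The thermoneutral (TN) groups then stayed at 30 °C, whereas the 3D and 14D groups spent the last 3 or 14 days at 6 °C. The mice were males from the National Institute on Aging or The Jackson Laboratory. The supplier of each group is not given in the sources used here, so age and supplier cannot be told apart. The methods name no pooling of mice for these single-cell libraries, and the number of mice behind each is not given there. No agent or transgene was used in these groups.

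PDGF ligands are secreted dimers that bind receptor tyrosine kinases on mesenchymal cells and drive their growth, migration and survival. PDGF receptor alpha (Pdgfra) is the usual surface marker of the fibroblasts that serve as adipocyte progenitors (ASPCs), and PDGF receptor beta (Pdgfrb) marks pericytes and other mural cells. Pdgfa and Pdgfb encode the classical chains, which are processed inside the cell, while Pdgfc and Pdgfd encode chains with a CUB domain that must be cut off outside the cell before the ligand can bind. Endothelial Pdgfb is known for recruiting pericytes to new vessels. Pdgfrl encodes a receptor-like protein with no kinase domain, and its function is poorly known.

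Levels were raw unique molecular identifier (UMI) counts from the 3′ ends of transcripts, summed over the cells of 1 class in 1 library and given as CPM, the count scaled to 1e6 UMIs of that class. After filtering, 57326 cells were kept and sorted into classes by marker lists that contain no PDGF member. The classes held 21847 Dpp4+ fibroblasts, 16832 Icam1+ preadipocytes, 2910 Cd142+ fibroblasts, 3867 endothelial cells, 435 pericytes, 125 smooth muscle cells (SMC), 117 Schwann cells and 223 remaining immune cells. The number of SMC depended on the cell filter. The main filter kept 7 to 58 SMC per library. A fixed cell filter, run as an alternative (1000 to 7000 genes, at most 10% mitochondrial UMIs), kept 60 to 309. The SMC levels below rest on the cells of the main filter. In each class, 9 or 10 of its 10 markers were detected in at least 10% of cells. This is no separate check of the classes, since the same markers set them. A further 8665 fibroblasts could not be split, and 3059 of these came from the aged 14D library. That library stood apart, with 52068837 UMIs and a median of 2588 UMIs per barcode, against 68479481 to 88508349 UMIs and medians of 6232 to 8954 in the others. Its fibroblasts also held more RNA of some other lineages. The summed level of 10 endothelial markers in its Icam1+ preadipocytes was 104 CPM, against 9.01 to 13.4 CPM in the other 5 libraries. Between 30 and 44 barcode sequences were shared by each pair of libraries. Age was tested with edgeR over 3 young and 3 aged libraries, with temperature as a term and Benjamini-Hochberg adjustment over all genes tested in the class. When 1 library was left out of this test, the temperature term took up its partner at that temperature. Leaving out either library of a temperature was therefore nearly the same test of age, without that temperature. Such a test has fewer residual degrees of freedom, and a call could be lost in it with little change in the log2 fold change. In Dpp4+ fibroblasts 2229 genes passed for age with all libraries, 1300 without aged 3D and 2259 without young 14D. Separate libraries are the only replicates here, so edgeR p-values rest on the spread between these libraries. With 2 residual degrees of freedom per gene in the age test, edgeR pools that spread in part over all genes of the class. Small p-values therefore lean on other genes as well as on the gene named. Intervals on single libraries cover counting error only. Levels were not compared between genes.

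Each member had its own distribution over the cell classes. Pdgfra was highest in the 3 fibroblast classes, Pdgfrb in pericytes, Pdgfa in SMC and Schwann cells, and Pdgfb in endothelial cells. Pdgfc had its highest mean in Dpp4+ fibroblasts, with SMC and immune cells next. Pdgfd was spread over endothelial cells, Dpp4+ fibroblasts and SMC. Pdgfrl had its highest means in Cd142+ fibroblasts and Icam1+ preadipocytes, followed by pericytes and Dpp4+ fibroblasts. Neighbouring classes in each gene's order of mean level were compared within libraries by an exact sign-flip permutation test, whose smallest possible p with 6 libraries is 0.03125. After adjustment over all 49 neighbour comparisons the smallest p was 0.118, so no single step in any order passed the threshold, and the order is given by ranges below.

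**Figure D1:**
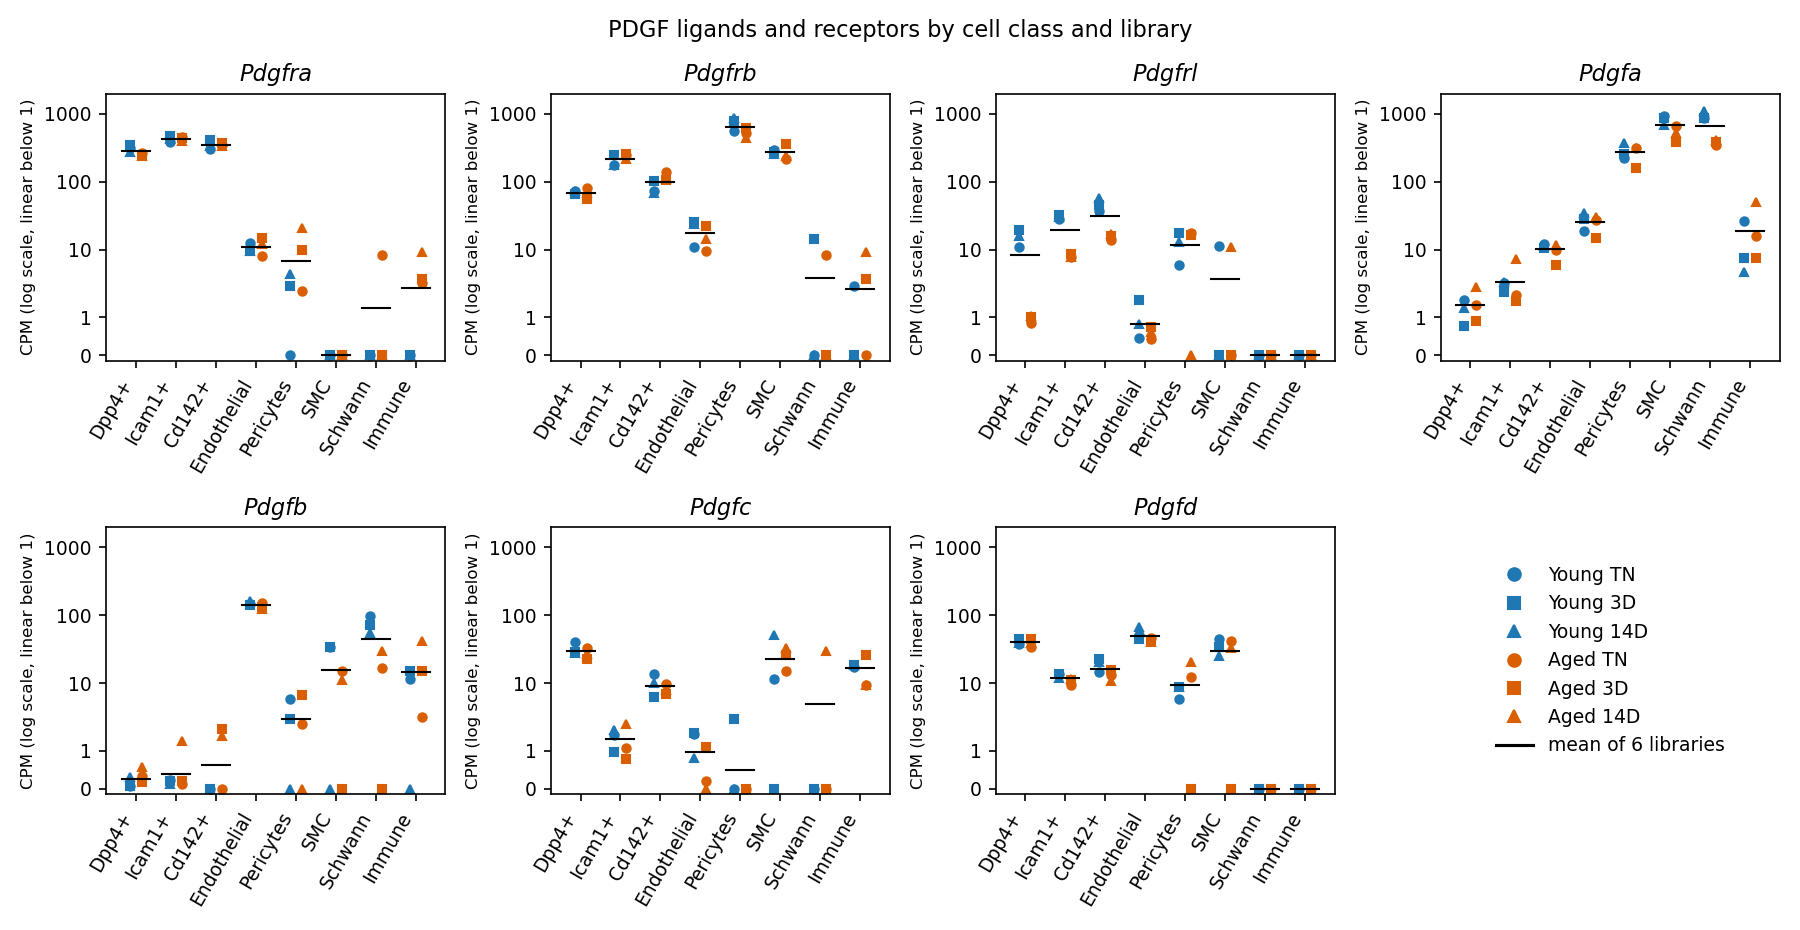
Level of each PDGF member (CPM, log axis that is linear below 1) in 8 cell classes, with 1 point per library, coloured by age and shaped by temperature group, and a line at the mean of the 6 libraries. Pdgfrl is the member whose young and aged points separate in all 3 fibroblast classes; Pdgfb sits above 124 CPM in endothelial cells of every library.

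Pdgfrl fell with age in all 3 fibroblast classes, most in Dpp4+ fibroblasts on the log2 scale and least there in CPM. In those cells its level was 11.1 CPM in young TN, 19.8 in young 3D and 16.0 in young 14D, and 0.856, 1.03 and 1.07 CPM in the aged TN, 3D and 14D libraries. The aged values came from 13, 27 and 22 UMIs, against 398, 632 and 612 UMIs in the young libraries, and the ranges were far apart. The log2 fold change of aged over young was -4.04 (SE 0.14, 95% interval -4.35 to -3.73, edgeR adjusted p = 1.14e-07). Of the 6 members tested in Dpp4+ fibroblasts, 3 fell and none rose, while 16.8% of all genes tested there passed, 8.44% lower and 8.37% higher.

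In Icam1+ preadipocytes, the Pdgfrl level was 28.7, 31.9 and 30.2 CPM in the young TN, 3D and 14D libraries, and 7.89, 8.77 and 7.81 CPM in the aged ones. The 3 values of each age lay close together and the ages did not overlap. The log2 fold change was -1.88 (SE 0.08, edgeR adjusted p = 2.12e-05). It was the only member of 6 tested that passed the threshold in this class, in which 11.8% of all genes passed, 5.25% lower and 6.54% higher. In Cd142+ fibroblasts, which carry the coagulation factor receptor F3 on their surface, Pdgfrl was at 37.1, 45.8 and 58.1 CPM in the young libraries and 13.7, 16.0 and 16.8 CPM in the aged ones. Again the lowest young value was above the highest aged value, with a log2 fold change of -1.57 (SE 0.14, edgeR adjusted p = 1.17e-09). In this class 1 of 6 members fell and 1 rose, beside 10.2% of all genes, 5.02% lower and 5.17% higher.

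The size of the Pdgfrl change differed between the fibroblast classes. A test of the difference itself (age by class in edgeR, with the library as a block) gave an age effect 2.12 log2 units less negative in Icam1+ preadipocytes than in Dpp4+ fibroblasts (SE 0.25, adjusted p = 0.0035), where 1.66% of all genes differed. The age effect in Cd142+ fibroblasts was 2.42 log2 units less negative than in Dpp4+ fibroblasts (SE 0.25, edgeR adjusted p = 6.27e-05), where 1.33% of genes differed. Between Cd142+ fibroblasts and Icam1+ preadipocytes the difference was 0.29 (95% interval -0.12 to 0.70, edgeR adjusted p = 0.681), and 0.783% of genes passed. In every library Cd142+ fibroblasts were the highest and Dpp4+ fibroblasts the lowest of the 3 classes for Pdgfrl.

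**Figure D2:**
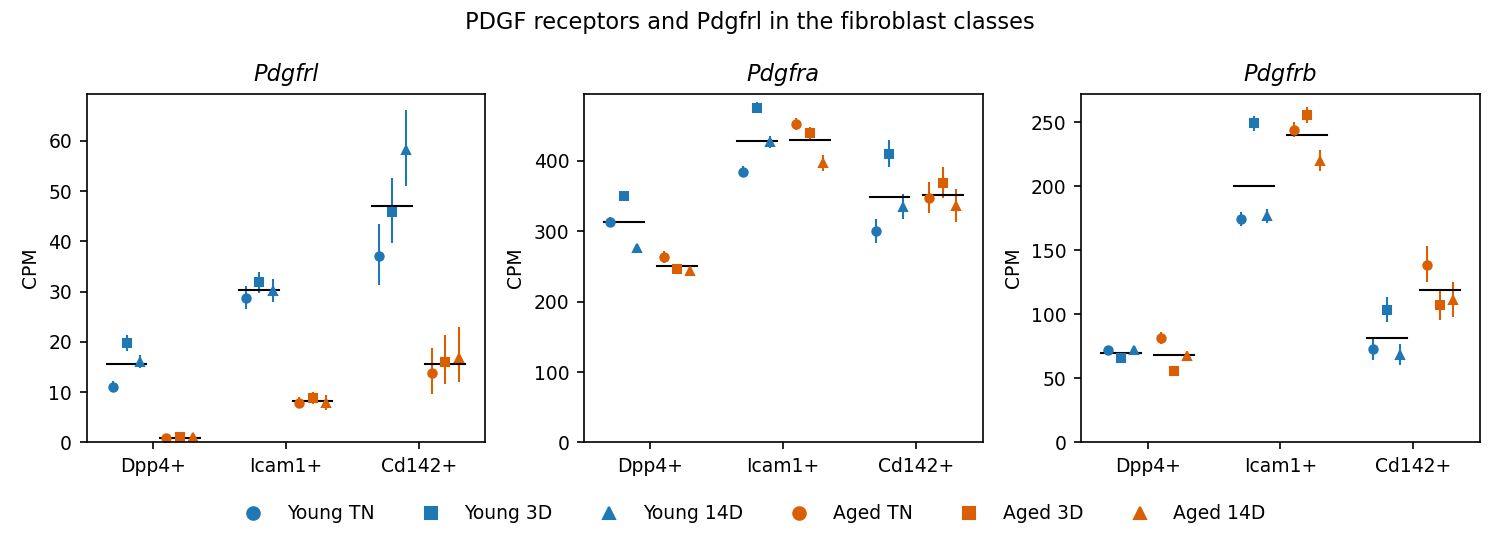
CPM of Pdgfrl, Pdgfra and Pdgfrb in the 3 fibroblast classes, with 1 point per library, exact 95% Poisson intervals as vertical lines (counting error only) and a horizontal line at the mean of each age. For Pdgfrl the aged points lie below the young points in each class, at about 1 CPM in Dpp4+ fibroblasts.

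Shares of cells with a Pdgfrl UMI were also compared at equal depth. Each cell was thinned to 2000 UMIs and shallower cells were left out, which removed 20 Dpp4+ fibroblasts of the aged TN library and 833 of the aged 14D library. The share in Dpp4+ fibroblasts was 2.81% ± 0.42 (SD, n = 3) in young and 0.109% ± 0.108 (SD, n = 3) in aged libraries. In endothelial cells, taken as the measure of background, it was 0.207% in young and 0.122% in aged libraries, from 0 or 1 cells in each. At this depth the aged Dpp4+ share could not be told apart from that background. Without thinning, at unequal depths, the aged shares were 0.539% in Dpp4+ fibroblasts and 0.231% in endothelial cells. In Icam1+ preadipocytes the share was 5.23% ± 0.42 in young and 1.48% ± 0.16 in aged libraries, and in Cd142+ fibroblasts 7.82% ± 2.55 and 3.30% ± 1.53 (SD, n = 3 each). The exact permutation p was 0.1 in each of the 3 classes, the smallest that 3 against 3 libraries allow.

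**Figure D3:**
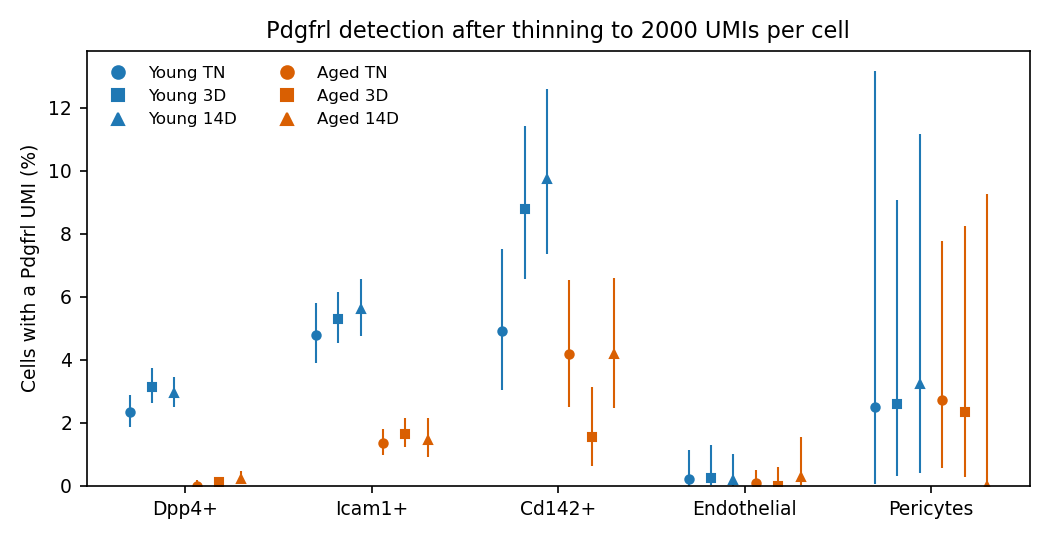
Share of cells (%) with at least 1 Pdgfrl UMI after thinning every cell to 2000 UMIs, by class, with 1 point per library and exact 95% binomial intervals (counting error only). Aged Dpp4+ fibroblasts lie within the intervals of endothelial cells, the points of aged Icam1+ preadipocytes and Cd142+ fibroblasts lie above the endothelial points, and pericytes have wide intervals and overlapping ages.

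The Pdgfrl result did not rest on the aged 14D library: without it the log2 fold change in Dpp4+ fibroblasts was -4.08. Marker lists moved with age in the same cells. Of the 10 general fibroblast markers, 7 fell with age in Dpp4+ fibroblasts and none rose, their median log2 fold change was -0.57, and their summed level was 32040 to 37920 CPM in young and 24990 to 28730 CPM in aged libraries. In Cd142+ fibroblasts 6 of these 10 fell and 1 rose, and in Icam1+ preadipocytes 4 fell. Each class also has its own list of 10 markers. Of these, 5 fell and 1 rose with age in Cd142+ fibroblasts (median -0.28). In Icam1+ preadipocytes 2 fell and 3 rose, and in Dpp4+ fibroblasts 1 fell and 1 rose. RNA of some other lineages, but not of all, was higher in the aged Dpp4+ sums. Of 10 pericyte markers 1 rose and 2 fell, and edgeR called 0 of 4 macrophage genes and 0 of 3 platelet genes tested. Of 10 endothelial markers 9 rose (median 1.25), with a summed level of 9.23 to 13.2 CPM in young, 14.1 and 17.7 CPM in aged 3D and TN and 53.2 CPM in aged 14D. Of 5 red blood cell genes 4 rose (median 2.80), at 3.71 to 153.6 CPM in young and 132.8 to 293.2 CPM in aged libraries, and 3 of 5 adipocyte genes tested rose (median 1.04), at 7.40 to 13.1 CPM and 13.7 to 30.7 CPM. None of the general fibroblast, endothelial, red blood cell and adipocyte lists had a gene at 0 UMIs in Dpp4+ fibroblasts. The part of any of these lists in the Pdgfrl result, or in the Pdgfrb result of Cd142+ fibroblasts, was not tested. The fibroblasts that could not be split held 15.9 to 20.6 CPM of Pdgfrl in young and 4.49 to 5.68 CPM in aged libraries.

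Outside fibroblasts, Pdgfrl was found in pericytes, at 5.92, 17.7 and 13.0 CPM in the young TN, 3D and 14D libraries and 17.4, 16.6 and 0 CPM in the aged ones. These values rest on 22 UMIs in 435 cells, the ages overlapped, and Pdgfrl was not among the genes tested in this class. In aged TN and aged 3D the pericyte level was above the Dpp4+ level. The thinned share of pericytes with a Pdgfrl UMI was 2.77% ± 0.39 in young and 1.69% ± 1.48 in aged libraries (SD, n = 3 each; exact permutation p = 0.3). Endothelial cells held 0.431 to 1.82 CPM from 12 UMIs, all SMC held 2 UMIs, and Schwann and immune cells held 0.

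Pdgfra, the receptor for most PDGF dimers, was highest in Icam1+ preadipocytes (mean 428.8 CPM over 6 libraries), followed by Cd142+ fibroblasts (349.3 CPM) and Dpp4+ fibroblasts (282.2 CPM). These ranges overlapped. Icam1+ preadipocytes exceeded Cd142+ fibroblasts in 6 of 6 libraries (exact p = 0.03125, adjusted p = 0.118). The next class, endothelial cells, held 7.97 to 15.1 CPM and did not overlap with the fibroblasts, and SMC had no Pdgfra UMI. In Dpp4+ fibroblasts the Pdgfra level was 313.6, 350.1 and 276.4 CPM in the young TN, 3D and 14D libraries and 263.4, 246.2 and 243.5 CPM in the aged ones. Each aged library was below every young one. The log2 fold change was -0.34 (SE 0.07, 95% interval -0.49 to -0.20, edgeR adjusted p = 0.00569). This call was lost without the young 3D library (-0.27, edgeR adjusted p = 0.0871) or without the aged 3D library (-0.27, edgeR adjusted p = 0.0893).

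In Icam1+ preadipocytes Pdgfra was at 384.3 to 474.9 CPM in young and 396.6 to 451.7 CPM in aged libraries, which overlapped (log2 fold change 0.01, 95% interval -0.17 to 0.20, edgeR adjusted p = 0.926). Cd142+ fibroblasts also overlapped between ages, at 300.2 to 409.7 CPM in young and 335.9 to 368.4 CPM in aged libraries (log2 fold change 0.03, 95% interval -0.15 to 0.21, edgeR adjusted p = 0.893). The age effect was not shown to differ between classes: the difference was 0.37 for Icam1+ against Dpp4+ cells (edgeR adjusted p = 0.118) and 0.38 for Cd142+ against Dpp4+ cells (edgeR adjusted p = 0.0782).

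Pdgfrb was highest in pericytes, at 556.9, 789.1 and 883.2 CPM in the young TN, 3D and 14D libraries and 518.5, 619 and 449 CPM in the aged ones. Ages overlapped, with aged 3D above young TN. The log2 fold change was -0.41 (95% interval -0.80 to -0.02) and did not pass after adjustment (edgeR adjusted p = 0.505). Neither of the 2 members tested in pericytes, Pdgfrb and Pdgfa, passed; Pdgfrb had an unadjusted edgeR p of 0.0407, DESeq2 called neither, and edgeR called 0.495% of all genes in this class. SMC followed at 217 to 362.5 CPM and lay below pericytes in every library, although each SMC sum came from 7 to 58 cells. Icam1+ preadipocytes came next (174.2 to 255.8 CPM) and were above Cd142+ fibroblasts (68.6 to 138.7 CPM) without overlap. Dpp4+ fibroblasts held 56.2 to 81.6 CPM.

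With age, Pdgfrb rose in Cd142+ fibroblasts, from 72.9, 103.2 and 68.6 CPM in the young TN, 3D and 14D libraries to 138.7, 107.1 and 111 CPM in the aged ones. Every aged value was above every young value, but young 3D and aged 3D were close. The log2 fold change was 0.56 (SE 0.12, edgeR adjusted p = 0.00105). The call was lost without young TN (0.38, edgeR adjusted p = 0.0522) or without aged TN (0.38, edgeR adjusted p = 0.0839), and DESeq2 gave an adjusted p of 0.0667. In Icam1+ preadipocytes Pdgfrb was at 174.2, 249.3 and 177 CPM in young and 244.3, 255.8 and 220 CPM in aged libraries. Young 3D lay within the aged range there, and the log2 fold change of 0.29 (SE 0.08) missed the threshold (edgeR adjusted p = 0.054). In Dpp4+ fibroblasts it was -0.08 (95% interval -0.26 to 0.09, edgeR adjusted p = 0.537). The difference between Cd142+ and Dpp4+ fibroblasts was 0.64 log2 units (edgeR adjusted p = 0.0572), which did not pass.

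Both receptors were read in the same cell most often in Icam1+ preadipocytes. At 2000 UMIs per cell, 16.6% to 22.1% of these cells had a UMI of both Pdgfra and Pdgfrb, against 5.17% to 9.75% of Cd142+ fibroblasts, 3.56% to 6.69% of Dpp4+ fibroblasts and 0% to 2.63% of pericytes. In pericytes, 58.2% to 72.7% of cells had a Pdgfrb UMI with no Pdgfra UMI. These shares are limited by depth, since a cell with no UMI may still express the gene.

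**Figure D4:**
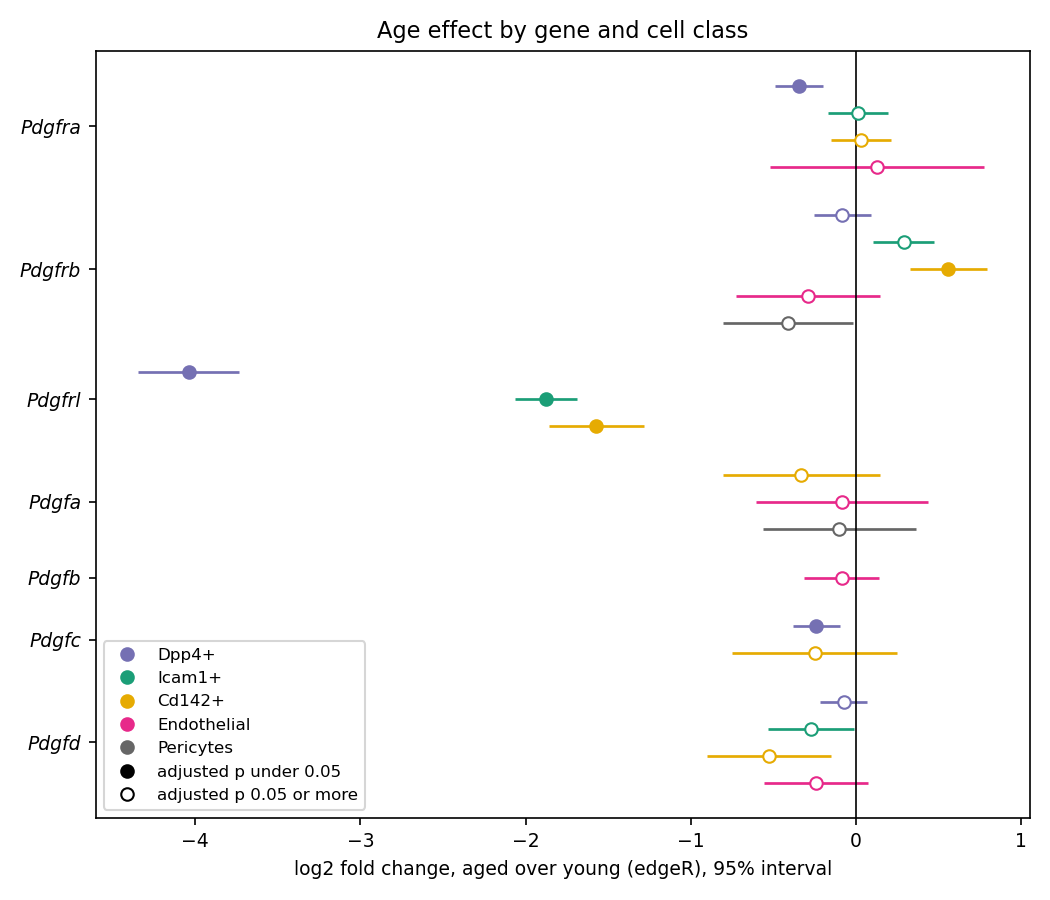
Age effect (log2 fold change of aged over young from edgeR, with 95% intervals) for each member in the classes where it was tested and its mean level was at least 5 CPM; filled points passed an adjusted p of 0.05. Pdgfrl lies at -4.04, -1.88 and -1.57, and the other members lie between -0.53 and 0.56.

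Among the ligands, Pdgfa, the main ligand for PDGF receptor alpha, was highest in SMC and Schwann cells. Under the main cell filter both classes were too small for the planned test. Age was not tested in the larger SMC class of the fixed cell filter. In Schwann cells its level was 885, 865.1 and 1114 CPM in the young TN, 3D and 14D libraries and 353.4, 380.5 and 413 CPM in the aged ones. The ages did not overlap, and the values rest on 60 to 63 UMIs in each young library and 14 to 43 in each aged one. The exact permutation p was 0.1, the smallest possible. A test chosen after seeing the data, edgeR on these sums of 14 to 37 cells, gave a log2 fold change of -1.35 (SE 0.24, adjusted p = 0.00499), beside 2.08% of 1301 genes called. The thinned share of Schwann cells with a Pdgfa UMI was 77.7% ± 12.6 in young and 41.1% ± 11.2 in aged libraries (SD, n = 3 each; exact permutation p = 0.1).

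In SMC, Pdgfa was at 939.1, 869.4 and 683.9 CPM in young and 662.2, 388.4 and 530.3 CPM in aged libraries. The lowest young and highest aged values were close, and the same added edgeR test gave -0.58 (SE 0.22, adjusted p = 0.515). It called 0 of 1407 genes in SMC, with 119 at an unadjusted p under 0.05; DESeq2 was not run on these sums. Pericytes held 159.7 to 372.3 CPM of Pdgfa, with overlapping ages (log2 fold change -0.10, 95% interval -0.56 to 0.37, edgeR adjusted p = 0.92). Endothelial cells held 15.1 to 34.5 CPM, below pericytes in every library. Fibroblasts held little: 5.91 to 11.9 CPM in Cd142+ fibroblasts, 1.74 to 7.27 CPM in Icam1+ preadipocytes and 0.783 to 2.82 CPM in Dpp4+ fibroblasts. In both of the last 2 classes the highest value was in aged 14D, the library whose fibroblasts also held 157 CPM of 10 smooth muscle markers in Icam1+ preadipocytes, against 26.9 to 35.4 CPM in the other libraries. The part of that RNA in the Pdgfa value was not tested.

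Pdgfb was an endothelial gene in these cells. Its endothelial level was 144.9, 142.7 and 165.1 CPM in the young TN, 3D and 14D libraries and 151.9, 134.1 and 124.3 CPM in the aged ones. The ages overlapped, with a log2 fold change of -0.09 (95% interval -0.31 to 0.14, edgeR adjusted p = 0.764). Of the 5 members tested in endothelial cells, edgeR called 0, none had an unadjusted p under 0.05, DESeq2 also called 0, and 0.803% of all genes were called. Endothelial cells were 4.09% to 14.4% of the kept cells and gave 58.4% to 83.6% of Pdgfb UMIs. Schwann cells held 98.3, 72.1 and 53.9 CPM in young and 16.4, 0 and 29.5 CPM in aged libraries, but only 18 UMIs in all. Pericytes, which respond to this ligand, held 5 Pdgfb UMIs. In the 3 fibroblast classes the level was at most 2.09 CPM, and in the fibroblasts that could not be split at most 3.79 CPM.

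Pdgfc, a ligand of PDGF receptor alpha, had its highest mean level in Dpp4+ fibroblasts. Its level there was 40.3, 28.5 and 28.2 CPM in the young TN, 3D and 14D libraries and 33.4, 23.0 and 27.3 CPM in the aged ones. At each temperature the aged value was below the young one, and at each age the TN value was the highest, although the ages overlapped. The log2 fold change with age was -0.24 (SE 0.06, edgeR adjusted p = 0.0284). This small change was lost on leaving out young TN, young 3D, aged TN or aged 3D (-0.22 to -0.21, edgeR adjusted p 0.107 to 0.184), and also under DESeq2 (adjusted p = 0.202). With cold, Pdgfc was lower by 0.55 log2 units at 3D and 0.40 at 14D against TN (edgeR log2 fold changes -0.55 and -0.40, adjusted p = 0.00692). Without young TN the adjusted p was 0.0634 and the 14D change -0.36. Among the other classes, SMC held 0 to 50.7 CPM from 11 UMIs and immune cells 9.26 to 26.0 CPM from 27 UMIs. Dpp4+ fibroblasts exceeded SMC in 3 of 6 libraries. Cd142+ fibroblasts held 6.28 to 13.7 CPM and Icam1+ preadipocytes 0.79 to 2.47 CPM.

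Pdgfd, a ligand of PDGF receptor beta, was at 50.7, 45.0 and 66.5 CPM in endothelial cells of the young TN, 3D and 14D libraries and at 45.7, 43.3 and 40.8 CPM in the aged ones. These overlapped (log2 fold change -0.24, 95% interval -0.55 to 0.07, edgeR adjusted p = 0.492). Dpp4+ fibroblasts held 34.0 to 45.3 CPM, overlapping with endothelial cells (log2 difference 0.26 ± 0.31, SD over 6 libraries; exact p = 0.125). In Cd142+ fibroblasts Pdgfd was at 14.7, 23.0 and 20.5 CPM in young and 13.0, 15.7 and 10.9 CPM in aged libraries, with a log2 fold change of -0.53 (SE 0.18) that missed the threshold (edgeR adjusted p = 0.0665). In Icam1+ preadipocytes it was 9.53 to 13.6 CPM (-0.27, edgeR adjusted p = 0.169). No Pdgfd UMI was seen in Schwann or immune cells.

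**Figure D5:**
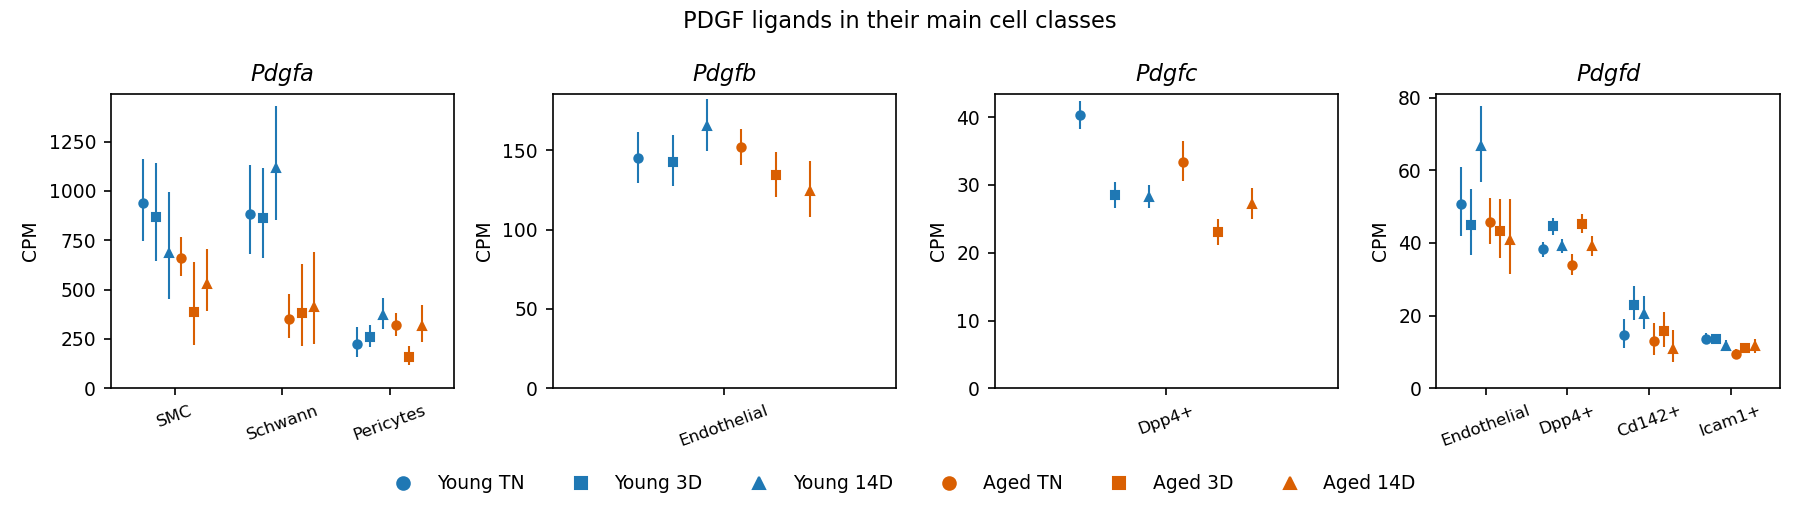
CPM of the 4 ligands in the classes where each was highest, with 1 point per library and exact 95% Poisson intervals (counting error only). Pdgfa in Schwann cells separates by age, Pdgfb in endothelial cells does not, and Pdgfc in Dpp4+ fibroblasts is highest at TN within each age.

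Few members passed the test of temperature. In Dpp4+ fibroblasts 2 of 6 members passed the edgeR test of temperature, Pdgfc and Pdgfrl, beside 6.47% of all genes. Pdgfrl was higher in the cold in these cells (edgeR log2 fold changes of 0.73 at 3D and 0.55 at 14D against TN, adjusted p = 0.0289). The levels ran from 11.1 to 19.8 CPM in the young libraries and from 0.856 to 1.07 CPM in the aged ones. Without young TN the 14D change was 0.17 (edgeR adjusted p = 0.591), and DESeq2 gave an adjusted p of 0.326. Pdgfrb in endothelial cells was higher by 1.27 log2 units at 3D and 0.94 at 14D, and missed the threshold (edgeR adjusted p = 0.074). Its endothelial level was 10.8 CPM in young TN and 9.48 CPM in aged TN, and 14.4 to 25.5 CPM in the 4 cold libraries, without overlap. The summed level of 10 pericyte markers in the same endothelial sums also did not overlap, at 204.5 and 241.2 CPM in the TN libraries and 255.5 to 372.5 CPM in the cold ones, and its part in the Pdgfrb values was not tested. In the other classes edgeR called 0 members: 3 of 6 had an unadjusted p under 0.05 in Icam1+ preadipocytes (4.12% of all genes called), 2 of 6 in Cd142+ fibroblasts (3.05%), 1 of 5 in endothelial cells (0.535%) and 0 of 2 in pericytes (0.0206%). DESeq2 called 0 members for temperature in these 4 classes and gave no adjusted p for 4 of the members in Cd142+ fibroblasts.

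Genes that process PDGF or carry its signal were followed in the same classes. Of the 11 processing and binding genes tested in Dpp4+ fibroblasts, 4 fell with age and none rose (median of the 11 -0.08, all genes 0.00), beside 8.44% of all genes that fell. Without young 3D or aged 3D, or with temperature left out of the test, 2 passed. Sparc, which encodes a matrix protein that binds PDGF chains, fell in each of the 3 fibroblast classes, with edgeR log2 fold changes of -1.75 (SE 0.09) in Dpp4+ cells, -1.55 (SE 0.10) in Cd142+ fibroblasts and -0.52 (SE 0.13) in Icam1+ preadipocytes. Its level in Dpp4+ fibroblasts was 10140, 5171 and 9628 CPM in the young TN, 3D and 14D libraries and 2926, 1772 and 2734 CPM in the aged ones, with no overlap. The Icam1+ call for Sparc was lost without young TN (-0.43), aged TN (-0.42) or aged 14D (-0.61). Sparc also fell in pericytes by 0.78 on the log2 scale (edgeR adjusted p = 0.0101), a call lost without either 14D library (-0.68 for both).

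The other 3 processing genes that fell in Dpp4+ fibroblasts, named after their values were seen, were the proprotein convertases Pcsk5 (-1.30) and Pcsk6 (-0.23) and the protease Bmp1 (-0.36). The Pcsk6 call was lost without either 3D library (-0.22 for both) or either 14D library (-0.15 for both), and the Bmp1 call without either 3D library (-0.37 for both). In Icam1+ preadipocytes 4 of 11 fell and 1 rose, beside 5.25% of all genes lower and 6.54% higher. The 1 that rose was Plau (0.68, SE 0.11), which encodes urokinase, an activator of the Pdgfd chain. The number that fell in this class was 2 to 4 with 1 library left out, lowest without young TN. With temperature left out of the test edgeR called 0 of the 11 there. An unadjusted edgeR p under 0.05 was found for 2 of them, beside 2187 of 12849 genes tested. In Cd142+ fibroblasts 3 of 11 fell and 2 rose, beside 5.02% of all genes lower and 5.17% higher, led by Thbs1 (thrombospondin 1, 0.97, SE 0.13). These counts for Cd142+ fibroblasts were the same with each library left out.

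Few signal relay genes passed, and whether their share differed from that of all genes was not tested. Of 22 tested in each fibroblast class, 3 passed in Dpp4+ fibroblasts (16.8% of all genes), 1 in Icam1+ preadipocytes (11.8%) and 2 in Cd142+ fibroblasts (10.2%). Pik3r1, the regulatory subunit of phosphoinositide 3-kinase, fell in Dpp4+ fibroblasts (-0.51, SE 0.06, edgeR adjusted p = 0.000174) and in Cd142+ fibroblasts (-0.45, SE 0.10, edgeR adjusted p = 0.00158), and both calls held with each library left out. Its Dpp4+ level was 172.6 to 206 CPM in young and 127.3 to 147.9 CPM in aged libraries. Of the other calls, the largest rise in each class is named here. Each of these 3 was lost on leaving out either library of at least 1 temperature. In Dpp4+ fibroblasts 2 relay genes rose, and only the larger rise is named. Mapk3, which encodes the kinase ERK1, rose in Dpp4+ fibroblasts (0.27, edgeR adjusted p = 0.0107), a call lost without either TN library (0.23 for both) or either 3D library (0.29 for both). Stat3 rose in Icam1+ preadipocytes (0.32, edgeR adjusted p = 0.0146), a call lost without either 3D library (0.33 for both). Fyn, a Src family kinase, rose in Cd142+ fibroblasts (0.28, edgeR adjusted p = 0.0441), a call lost on leaving out any of the 6 libraries (0.24 to 0.33) and under DESeq2 (adjusted p = 0.531). The Dpp4+ count was 1 without either TN or either 3D library, and 4 without either 14D library.

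Among 15 negative regulators, each call named here for the fibroblast classes kept its direction but was lost with some libraries left out. Ptpn1, a phosphatase that acts on the receptors, passed in all 3 fibroblast classes, by 0.23, 0.31 and 0.39 in Dpp4+, Icam1+ and Cd142+ cells (edgeR adjusted p = 0.0249, 0.0224 and 0.0449). It was lost in each class without either 3D library (0.20, 0.28 and 0.25), in Dpp4+ cells also without either TN library (0.25 for both), in Cd142+ cells also without either 14D library (0.38 and 0.37), and under DESeq2 in all 3 (adjusted p 0.0982 to 0.829). In Dpp4+ fibroblasts 3 others of this list fell, beside 8.44% of all genes. Among them was Dusp6 (-0.46, edgeR adjusted p = 0.0279), a phosphatase that acts on ERK, which was lost without either TN library (-0.38 for both) or either 3D library (-0.47 for both) and under DESeq2 (adjusted p = 0.241). In Icam1+ preadipocytes the adaptor Dok1 fell (-0.40, edgeR adjusted p = 0.0426), a call lost without any library but aged TN (-0.46 to -0.36) and under DESeq2 (adjusted p = 0.328).

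The early growth factor response genes included the most members that rose. Of 15 tested, 6 rose and 1 fell in Dpp4+ fibroblasts, beside 8.37% of all genes higher and 8.44% lower, and 5 rose in each of the Icam1+ class (6.54% of all genes) and the Cd142+ class (5.17%). With temperature left out of the test 2 rose in each class. With 1 library left out, the number that rose was 4 to 7 in Dpp4+ cells and 4 to 7 in Icam1+ cells, lowest without either 3D library, and 3 to 6 in Cd142+ cells, lowest without aged 3D. The leaders were Ccl2 in Dpp4+ fibroblasts (a chemokine, 0.59, SE 0.11), Nr4a1 in Icam1+ preadipocytes (an orphan nuclear receptor, 0.70, SE 0.07) and Ier3 in Cd142+ fibroblasts (0.62, SE 0.10), and each kept its call with any library left out. Jun fell in Dpp4+ fibroblasts (-0.34, SE 0.10), a call lost without either 3D library (-0.30 for both). In pericytes Ier3 rose by 1.06 and Socs3 by 0.96 on the log2 scale (edgeR adjusted p = 0.0349 for both). The Ier3 call was lost without either 3D library (1.14 and 1.15) or either 14D library (0.86 for both), the Socs3 call without either 3D library (0.84 and 0.85), and both under DESeq2 (adjusted p = 0.209 and 0.0828). These genes also respond to tissue dissociation and to many other signals; which signal moved them was not tested.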

How the data were processed

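Per the labels and file headers, libraries were made with the 10x Genomics 3′ kit (v3.1), and the authors counted UMIs per gene and cell against mm10 with Cell Ranger 3.1.0; the deposited values were raw counts. Barcodes with over 200 genes and within 3 median absolute deviations of their library's median were kept. Cells were classed by lists of 10 markers (at least 5 detected, a lead of 2 over other lineages; fibroblast classes at least 3 markers above their mean and a lead of 2), a rule set after marker values were seen. No doublet caller was run. Cells whose top lineage led by under 2 markers, and fibroblasts with at least 5 markers of another lineage, fell out of the classes. Other cells with a lead of 2 stayed in, whatever other markers they held. The 10 pericyte markers summed to 204.5 to 372.5 CPM in endothelial cells, and the 10 endothelial markers to 131.2 to 538.3 CPM in pericytes. Counts summed per class and library were tested in edgeR 4.0.16 (R 4.3.3; TMM, filterByExpr, quasi-likelihood, adjusted p under 0.05), with 2 residual degrees of freedom for age. Classes with under 20 cells in a library were not in the planned test. Age differences between classes used 12 sums with a library block. Total counts were 52068837 to 88508349 UMIs per library. The test script was checked on simulated data. All 7 members were named, with the gene of largest rise and fall per list in the fibroblast classes and pericytes and the 3 genes most like each member. Members and lists were chosen with earlier results of these data known. Alternatives were DESeq2 1.42.0, RLE factors, no count filter, equal thinned cells, another cell filter, looser and stricter gates, and each library left out.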

Additional observations from a re-analysis of the deposited data

Results flagged for a closer look

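The age effect on Pdgfrl differed between fibroblast classes by a test of the difference itself. Icam1+ preadipocytes had an effect 2.119 log2 units less negative than Dpp4+ fibroblasts (edgeR adjusted p = 0.0035), and that of Cd142+ fibroblasts was 2.419 log2 units less negative than that of Dpp4+ fibroblasts (edgeR adjusted p = 6.27e-05). At all 3 temperatures Pdgfrl was lower in the aged library in each of these classes.

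Age differences of Pdgfrb had opposite signs in different classes, and the contrast between these classes was not tested. The mean log2 difference of aged minus young over the 3 temperatures was 0.2783 for Icam1+ preadipocytes and 0.5524 for Cd142+ fibroblasts, with the aged library higher at each temperature. It was -0.3389 in endothelial cells and -0.4757 in pericytes, with the aged library lower at each temperature. Of these 4, the edgeR test of age was passed only by Cd142+ fibroblasts. Icam1+ preadipocytes (edgeR adjusted p = 0.054), endothelial cells and pericytes missed the threshold, although endothelial Pdgfrb passed with the fixed cell filter (log2 fold change -1.06). The endothelial Pdgfrb levels of the main filter rest on 265 UMIs. The same endothelial sums held 204.5 to 372.5 CPM of 10 pericyte markers, and the part of that RNA in the Pdgfrb values was not tested. Pdgfra in pericytes also met this rule at first, but it had only 0 to 3 UMIs per library, and a floor of more than 3 UMIs in at least 1 library, set after that was seen, left it out.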

How the results depend on the processing

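The fall of Pdgfrl with age kept its direction and passed the threshold in all 3 fibroblast classes under every alternative run, with the log2 fold change in Dpp4+ fibroblasts between -3.88 and -4.46. For the age effects of all members, 267 alternative values kept their direction and side of the threshold, 11 newly passed, 14 no longer passed and 15 changed sign, and the cause was not tested. No paired analysis was possible because each group has 1 library and so no replicate numbers to pair; the temperature term in the main test already compares the ages within each temperature. The design leaves 2 residual degrees of freedom for age. Low levels were limited by depth, most of all in aged Dpp4+ fibroblasts for Pdgfrl. In SMC and Schwann cells they were also limited by cell numbers, which for SMC depended on the cell filter.

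With temperature left out of the age test or age out of the temperature test, 3 age calls were lost: Pdgfra in Dpp4+ cells (-0.34), Pdgfc in Dpp4+ cells (-0.25) and Pdgfrb in Cd142+ cells (0.55). The 14D effects in Dpp4+ cells were then lost for Pdgfrl (0.50) and Pdgfc (-0.40). Counts of genes passing for age were 702, 220, 302, 12 and 14 in Dpp4+, Icam1+, Cd142+, endothelial and pericyte classes, and for temperature 0 in Dpp4+, Icam1+, Cd142+ and endothelial cells. Under DESeq2, Pdgfc in Dpp4+ cells (-0.24), Pdgfrb in Cd142+ cells (0.57) and the 14D effect on Pdgfrl in Dpp4+ cells (0.53) no longer passed; counts for age were 1276, 864, 275, 42 and 7 in the same 5 classes, and for temperature 82 in Cd142+ cells and 0 in pericytes.

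With equal numbers of cells thinned to 2000 UMIs, Pdgfc in Dpp4+ cells (-0.20) and the 14D effect on Pdgfrl (0.57) were lost, Pdgfd in Dpp4+ cells passed (-0.34), and 2 effects changed sign: Pdgfrb in Dpp4+ cells (0.011) and the difference for Pdgfra between Cd142+ and Icam1+ cells (-0.0075). Counts were 1202, 534, 397, 128 and 8 for age, and 294, 114 and 174 for temperature in Icam1+, Cd142+ and endothelial cells. The differences between classes gave 99, 80 and 50 genes. The excess of Pdgfrl in Cd142+ over Icam1+ cells was 0.73 (exact p = 0.0625) and that of Pdgfd in endothelial over Dpp4+ cells 0.33 (exact p = 0.0312).

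Without a count filter, 5 results passed: Pdgfrb in Icam1+ cells (0.28), Pdgfd in Cd142+ cells (-0.55), the 14D effect on endothelial Pdgfrb (0.92), and the differences between Cd142+ and Dpp4+ cells for Pdgfra (0.36) and Pdgfrb (0.62). Counts were then 543 and 74 for age in endothelial cells and pericytes, 2185, 1741, 589 and 39 for temperature in Dpp4+, Icam1+, endothelial and pericyte classes, and 438, 372 and 395 for the differences between classes. With RLE factors 85 genes passed for temperature in endothelial cells. With the fixed cell filter, Pdgfrb passed in Icam1+ cells (0.31), for age in endothelial cells (-1.06), for temperature in endothelial cells (14D 0.073) and for the difference between Cd142+ and Dpp4+ cells (0.65); 229 endothelial genes passed for age and 174 for temperature, with 6 for temperature in pericytes.

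With the stricter gate, Pdgfrb passed in Icam1+ cells (0.28), and Pdgfra changed sign in Cd142+ cells (-0.038), in endothelial cells (-0.042) and in the difference between Cd142+ and Icam1+ cells (-0.070). Counts were 664 and 182 for age in Cd142+ and endothelial cells, and 163, 165 and 10 for temperature in Cd142+, endothelial and pericyte classes. With the looser gate, the 14D effect on endothelial Pdgfrb passed (0.58), 108 and 18 genes passed for temperature in endothelial cells and pericytes, and 57 for the difference between Cd142+ and Icam1+ cells. Differences in the share of cells with a Pdgfrl UMI were -1.47 and -2.07 percentage points in Dpp4+ and Icam1+ cells at 1000 UMIs, and -10.1, -16.7 and -14.0 in Dpp4+, Icam1+ and Cd142+ cells with no thinning. Without thinning, at unequal depths, the share changed by -14.1 points for Pdgfra in Dpp4+ cells and by -1.68 points for Pdgfrb in Cd142+ cells. At the equal depth of the main comparison the Pdgfra share changed by -6.10 points. The Pdgfrb share had the opposite sign there, at 13.25% in young and 18.72% in aged libraries. That was a change of 5.47 points (exact permutation p = 0.1).

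Leaving out each library in turn gave these ranges. Age effects ran from -0.39 to -0.27 for Pdgfra and -0.29 to -0.21 for Pdgfc in Dpp4+ cells. In Icam1+ cells they ran from -0.087 to 0.073 for Pdgfra (negative without young TN, -0.087, or aged TN, -0.085), 0.20 to 0.38 for Pdgfrb (passing without young 3D) and -0.39 to -0.14 for Pdgfd (passing without young 14D, -0.39, or aged 14D, -0.38). In Cd142+ cells they ran from -0.052 to 0.10 for Pdgfra, 0.38 to 0.81 for Pdgfrb and -0.68 to -0.37 for Pdgfd (passing without young TN or aged TN, both -0.68). In endothelial cells they ran from -0.20 to 0.57 for Pdgfra, -0.47 to 0.23 for Pdgfa and -0.19 to 0.041 for Pdgfb, and in pericytes from -0.39 to 0.17 for Pdgfa. Signs changed without either TN library for Pdgfra in Cd142+ cells (-0.052 for both), without either 3D library for endothelial Pdgfra (-0.20 for both), endothelial Pdgfa (0.23 and 0.22) and pericyte Pdgfa (0.16 and 0.17), and without either 14D library for Pdgfb (0.041 for both). The 14D effects in Dpp4+ cells ran from 0.17 to 0.64 for Pdgfrl and -0.47 to -0.32 for Pdgfc. The differences ran from 0.49 to 0.88 for Pdgfrb between Cd142+ and Dpp4+ cells (passing without young 3D) and from -0.022 to 0.061 for Pdgfra between Cd142+ and Icam1+ cells, with negative values of -0.00072, -0.0065 and -0.022 without young TN, young 14D and aged 14D. Genes passing for age ran from 1300 (without aged 3D) to 2259 in Dpp4+, 767 (without aged 3D) to 1756 in Icam1+, 682 (without young 14D) to 925 in Cd142+, 10 (without aged 3D) to 458 (without aged TN) in endothelial and 14 to 79 (without aged TN) in pericyte sums. For temperature they ran from 403 to 2207, 408 to 2255, 226 to 576, 22 to 351 and 0 to 40 in the same order. For differences they ran from 65 to 178, 81 to 165 and 48 to 97.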

Other observations

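Endothelial cells were split by lymphatic markers. In the 48 cells with at least 3 of 6 lymphatic markers the median level over the libraries was 10.7 CPM for Pdgfb and 47.7 CPM for Pdgfa, from 6 and 25 UMIs. In the 3373 cells with no lymphatic marker it was 142 CPM for Pdgfb, 20.4 CPM for Pdgfa and 45.0 CPM for Pdgfd. With 2 to 14 lymphatic cells per library these values were not tested.

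The genes most like each member over 36 sums (6 classes by 6 libraries) are given as a description, since the sums share libraries and depth. Pearson's r of log2(CPM + 1) was 0.966 for Pdgfra with the proteoglycan gene Dcn, followed by Aebp1 and Dpep1. For Pdgfrb it was 0.957 with Cygb, then Pde1a and Tuba1a. For Pdgfrl it was 0.865 with Yipf5, then Igsf10 and Erlec1. For Pdgfa it was 0.95 with Tpm1, then Gcnt2 and Csrp1, and for Pdgfb 0.94 with Cd93, then Pecam1 and Tmbim6. For Pdgfc it was 0.896 with Rps3a1, then Ptprj and Rps4x, and for Pdgfd 0.904 with S100a13, then Pxdn and Adarb1. Dcn, Cygb and Pecam1 are among the markers that set the classes.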
